A study of Mus musculus with 4 samples.

Results

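The genes described here prepare and make the DNA double-strand breaks that start meiotic recombination. They are Prdm9, Hells, Zcwpw1, Spo11, Rec114, Mei4 and Ankrd31, 7 of the 21887 protein-coding genes on chromosomes 1 to 19, X and Y of the RefSeq gene table, and all 7 matched that table by symbol. They were picked by name for their role, by a rule that uses no measured value, with earlier results of these data known. For each gene, the accessible sites (peaks) inside it or within 10 kb of either annotated end were collected from 2 deposited ATAC-seq peak lists, 1 per genotype. ATAC-seq marks open chromatin by cutting it with the Tn5 transposase. The cells were pachytene spermatocytes from mouse testis, and the genotypes were a Znhit1 knockout (Znhit1_KO in the labels) and a control (CTRL). ZNHIT1 belongs to SRCAP, the remodeller that inserts the histone variant H2A.Z, and the comparison of genotypes addresses its part in chromatin accessibility. Peak positions do not check the loss of Znhit1 itself. The labels give 2 libraries per genotype, all with P35 in their titles. They name no allele, Cre driver, strain or number of pooled animals. Each list gives positions alone, with no height or score, so a peak is either listed or not, and no difference between the genotypes has a replicate check.

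In mouse meiosis PRDM9, a zinc finger histone methyltransferase, binds DNA and marks the nucleosomes around its sites, which become recombination hotspots. HELLS remodels chromatin together with PRDM9, and ZCWPW1 reads the histone marks that PRDM9 leaves. SPO11 then cuts both strands, and REC114, MEI4 and ANKRD31 act on the chromosome axis to allow and place the cuts. Breaks are made mainly before pachytene, the stage sampled here, at which homologous chromosomes are fully paired.

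The knockout list held 21004 separate peaks and the control list 15376. Of these, 32.4% and 44.4% met a peak in the opposite list (1 bp or more in common), called shared below. Since the reads behind each list are unknown, a difference in list length does not by itself show more open sites. A peak lay within 1 kb of an annotated gene end in both lists at 11 of 13 markers of pachytene spermatocytes, among them Sycp1, Sycp3, Mybl1 and Piwil1, against 28.6% of all protein-coding genes. The same held for 0 of 8 markers of spermatogonia, 0 of 7 of round spermatids, 0 of 6 of Sertoli cells, 0 of 5 of Leydig cells, 0 of 2 each of peritubular and endothelial cells and 0 of 3 of leukocytes. Of these, Id4 and Dmrt1 had one in the control list alone, and Uchl1 and Acta2 in the knockout list alone. Among the pachytene markers, Ccna1 had none in either list and H1f6 had one in the knockout list alone. Over all protein-coding genes these classes held 4.66% (control list alone) and 9.81% (knockout list alone). With the wider window of 10 kb used for the genes described here, both lists held a peak at 13 of 13 pachytene markers, 2 of 8 of spermatogonia, 2 of 6 of Sertoli cells and 1 of 3 of leukocytes, against 46.1% of all protein-coding genes. Both peritubular and both endothelial markers had one in the knockout list alone, as did 2 markers of round spermatids and 1 each of spermatogonia, Sertoli cells and leukocytes. In the control list alone were 2 markers each of Leydig cells and spermatogonia. Over all protein-coding genes the 10 kb window gave 13.9% in the knockout list alone and 5.85% in the control list alone. The part of other cells in the peaks described here was not tested.

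Of the 7 genes, 5 had a peak within their window in both lists, Rec114 had one in the knockout list alone, and Mei4 had none in either. Over all protein-coding genes the same window held a peak in both lists at 46.1%, in the knockout list alone at 13.9% and in neither at 34.2%. The windows span 926.9 kb in all, and held 9 knockout peaks and 7 control peaks. That is 0.971 knockout and 0.755 control peaks per 100 kb, against 1.55 and 1.21 over the windows of all protein-coding genes. The window of Mei4 alone takes up 362.3 kb of the total and held no peak, which lowers both densities. They therefore do not describe the other 6 genes. All 7 control peaks overlapped a knockout peak (exact Clopper-Pearson 95% interval 59.0 to 100%, counting error only). Of the 9 knockout peaks, 7 overlapped a control peak (77.8%, 40.0 to 97.2%). Over the whole lists, 44.4% of control peaks and 32.4% of knockout peaks were shared. Whether the sharing is particular to these genes was not tested. The 2 knockout peaks without a partner were the narrowest in these windows, at 217 bp (Hells) and 243 bp (Rec114), each listed once. Both lay above the upper annotated end, which is downstream of Hells but upstream of Rec114, a gene on the minus strand. With only peaks of at least 300 bp counted, 5 genes had a peak in both lists, none in 1 list alone, and 2 had none. All protein-coding genes were not counted at that setting.

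**Figure D1:**
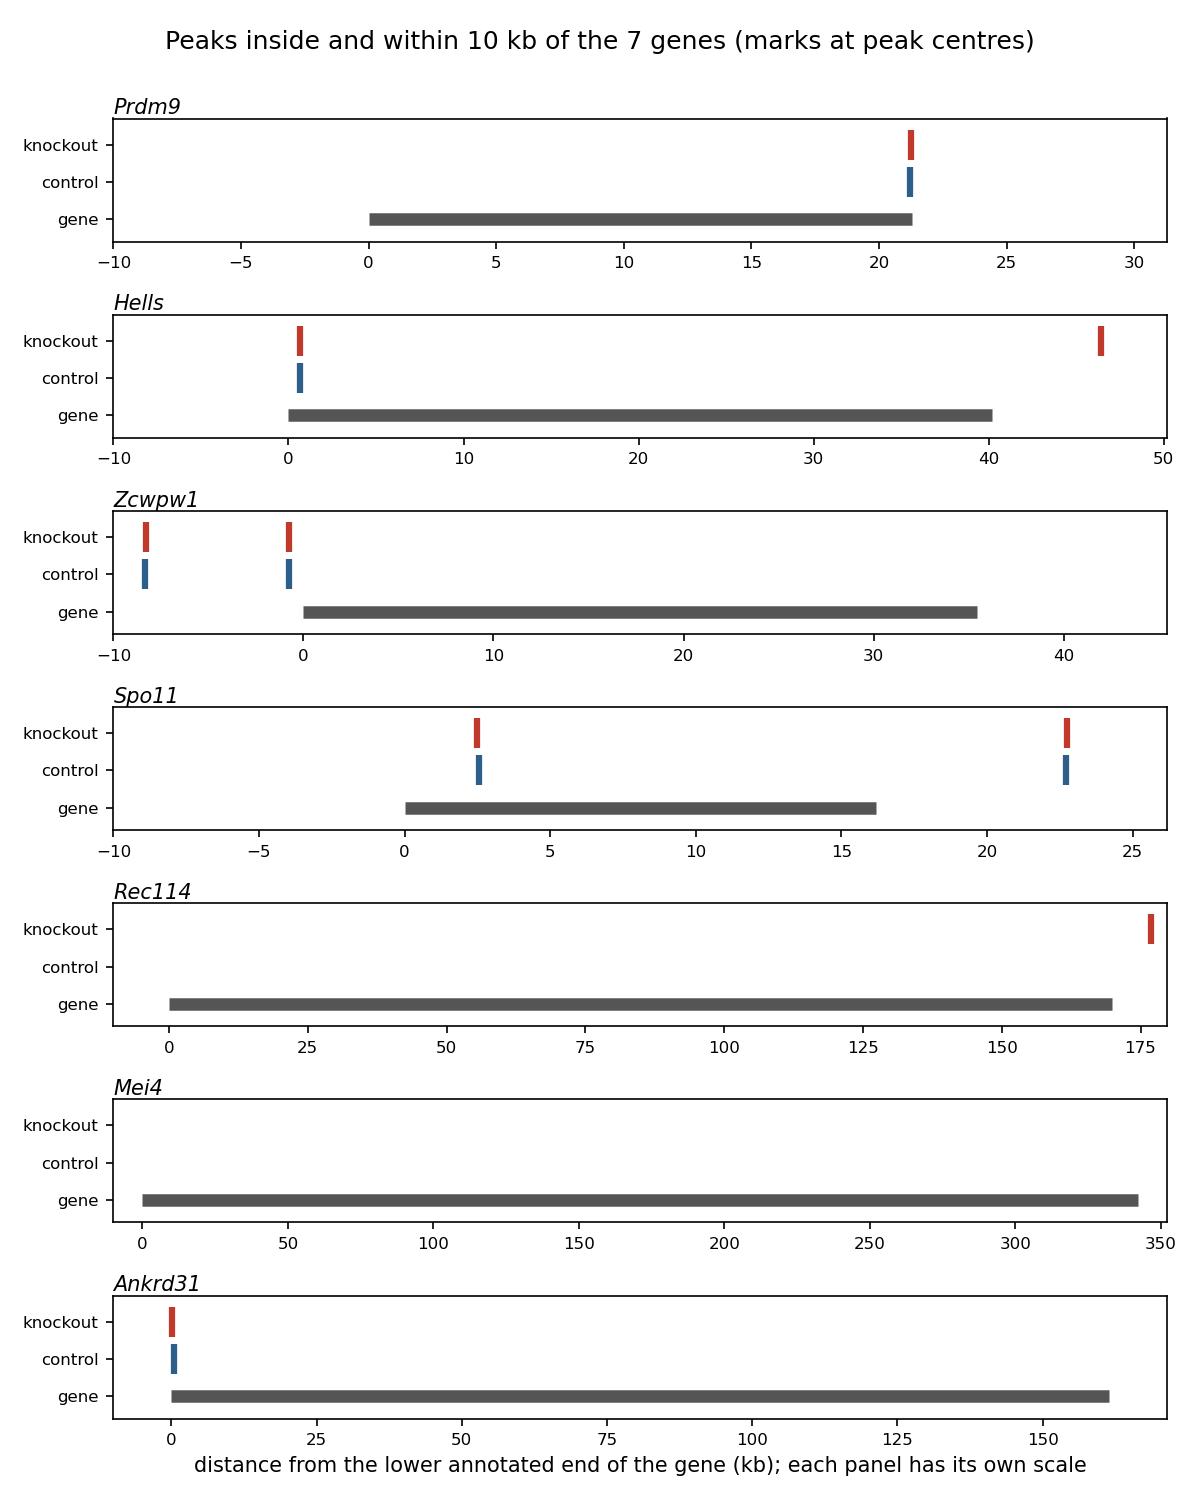
Peaks in the windows of the 7 genes, with distance from the lower annotated end of each gene in kb on the horizontal axis, the gene as a grey bar, and a mark at the centre of each knockout (red) and control (blue) peak. All 7 control marks have a knockout mark beside them, 2 knockout marks beyond Hells and Rec114 stand alone, and the panel of Mei4 holds no mark.

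The peaks differed in where they stood relative to the start of the gene. RefSeq start sites were given for 6 of the genes, 8 start sites in all, each with a promoter window from 250 bases before to 50 bases after the site. A peak lay on a promoter window in both lists at Prdm9 and Hells, in the knockout list alone at Ankrd31, and in neither list at Zcwpw1, Rec114 and Mei4. Over the 17492 protein-coding genes with such an entry, these classes held 28.3%, 8.67% and 59.6%. With the wider rule of 1 kb around either annotated end, Prdm9, Hells, Zcwpw1 and Ankrd31 had a peak in both lists and the other 3 genes in neither. That wider rule gave 28.6% in both and 57.0% in neither over all protein-coding genes.

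The 250 bases before the start site are printed here for 6 genes, because the 3 classes can be read against them. In Prdm9 and Hells every printed base lies under a peak of both lists, in Ankrd31 every base lies under the knockout peak and none under the control peak, and in Zcwpw1, Rec114 and Mei4 none lies under a peak. Sequences are from RefSeq, build GRCm38.p6, read 5′ to 3′ on the gene's strand, and capitals mark matches to the motifs named in the next paragraph.
Prdm9, outer start site, chr17:15564355-15564604, minus strand: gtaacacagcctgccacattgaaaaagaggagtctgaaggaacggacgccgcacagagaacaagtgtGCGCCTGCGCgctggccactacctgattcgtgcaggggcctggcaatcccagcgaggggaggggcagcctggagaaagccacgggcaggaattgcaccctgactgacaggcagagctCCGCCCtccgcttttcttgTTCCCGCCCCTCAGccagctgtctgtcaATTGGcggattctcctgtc
Hells, chr19:38930740-38930989, plus strand: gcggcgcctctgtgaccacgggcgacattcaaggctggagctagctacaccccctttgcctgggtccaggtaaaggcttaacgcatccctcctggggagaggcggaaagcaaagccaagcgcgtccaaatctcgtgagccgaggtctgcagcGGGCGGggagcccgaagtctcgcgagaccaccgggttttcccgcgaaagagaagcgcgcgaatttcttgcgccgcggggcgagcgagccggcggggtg
Ankrd31, chr13:96748043-96748292, plus strand: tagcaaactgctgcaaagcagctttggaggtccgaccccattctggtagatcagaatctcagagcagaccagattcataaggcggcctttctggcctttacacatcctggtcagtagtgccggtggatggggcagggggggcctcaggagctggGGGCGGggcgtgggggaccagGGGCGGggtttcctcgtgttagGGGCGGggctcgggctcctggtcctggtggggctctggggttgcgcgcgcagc
Zcwpw1, first start site, chr5:137787081-137787330, plus strand: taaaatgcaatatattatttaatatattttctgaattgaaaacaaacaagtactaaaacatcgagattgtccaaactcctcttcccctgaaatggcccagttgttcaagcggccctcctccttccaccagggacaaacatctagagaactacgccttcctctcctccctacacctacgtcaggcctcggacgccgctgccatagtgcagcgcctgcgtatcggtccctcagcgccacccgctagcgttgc
Rec114, chr9:58741560-58741809, minus strand: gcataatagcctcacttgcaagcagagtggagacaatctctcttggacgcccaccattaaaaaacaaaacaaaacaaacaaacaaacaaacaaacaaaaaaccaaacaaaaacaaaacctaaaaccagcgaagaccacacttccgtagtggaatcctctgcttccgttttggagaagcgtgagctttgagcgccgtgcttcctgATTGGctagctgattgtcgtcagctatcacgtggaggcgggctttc
Mei4, chr9:81863420-81863669, plus strand: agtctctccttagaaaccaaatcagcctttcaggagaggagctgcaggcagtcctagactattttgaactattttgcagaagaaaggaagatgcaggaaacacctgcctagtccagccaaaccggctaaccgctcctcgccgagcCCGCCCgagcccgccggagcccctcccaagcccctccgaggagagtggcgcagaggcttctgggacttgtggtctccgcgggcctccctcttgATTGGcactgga

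Motifs were searched on both strands in the 250 bases before each of the 8 start sites and of all 21263 start sites of protein-coding genes in the same table. The GC box (GGGCGG) was found at 4 of the 8, in Hells, Mei4, Ankrd31 and the outer start of Prdm9, and at 42.6% of all. Ankrd31 held it at 3 places, starting 96, 75 and 53 bases before the start site. CCAAT was found at 3 of the 8, in Mei4, Rec114 and the outer start of Prdm9, and at 35.4% of all. The outer start of Prdm9 held all the other matches but one. They were the E2F motif GGCGGGAA (2.47% of all), the STRA8 and MEIOSIN motif CNCCTCAG (6.75%) and the NRF1 motif (5.18%). The E2F, STRA8 and MEIOSIN and GC box matches there overlap each other between 47 and 34 bases before the start site. The second start site of Zcwpw1, not printed, held the other NRF1 match. TGACGTCA (CRE), TATAAA and AACNGTT (MYB) were at none of the 8, and at 1.92%, 11.6% and 3.5% of all. A match is a run of letters and does not show that a factor binds.

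Prdm9 (gene ID 213389; chromosome 17, 15543072 to 15564374, minus strand) had 1 peak in each list, across its outer start site. The knockout peak ran from 15563901 to 15564789 and was 889 bp wide. The control peak ran from 15563782 to 15564810 and was 1029 bp wide. The knockout peak lay wholly inside the control peak and covered 86.4% of it, and it reached from -435 to 453 bp relative to the start site. Both covered the whole promoter window of the outer start site, and neither reached that of the inner start site at 15563331, which lay 570 bp beyond the knockout peak and 451 bp beyond the control peak. The width placed the peaks at or above 90.7% of knockout and 93.8% of control peaks. The lists also differed in how often the interval was written. The control list held it on 4 lines and the knockout list on 1, and of the 1973 knockout peaks at least as wide only 59 (2.99%) stood on 1 line. MACS2, which the submitters name, can repeat an interval for each of its summits. No summit is given here, so why lines repeat was not tested. With only intervals listed at least 2 times kept, Prdm9 had a peak in the control list alone.

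Hells (gene ID 15201; chromosome 19, 38930262 to 38970470, plus strand) had the most closely matched peak pair of the 7 genes. The knockout peak ran from 38930599 to 38931289 (691 bp) and the control peak from 38930593 to 38931289 (697 bp). Their ends coincided, their starts differed by 6 bp, and both were listed 2 times. The bases in both peaks made up 99.1% of the bases in either. Over the 6296 pairs in which 1 knockout peak met 1 control peak, the median of this percentage was 70.4% (quartiles 55.1 and 82.9%), and 6272 pairs had a value at or below that of Hells. The start site at 38930990 lay inside both peaks, whose upstream edges stood at -391 bp (knockout) and -397 bp (control) relative to it. A second peak, of 217 bp, stood in the knockout list alone from 38976578 to 38976794, 6107 bp beyond the end of Hells, where it reaches into the pseudogene Cyp2c52-ps. It was listed once, and 14.3% of knockout peaks were as narrow or narrower.

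Zcwpw1 (gene ID 381678; chromosome 5, 137787157 to 137822621, plus strand) had no peak inside it in either list. Its nearest peak ended before the gene began. The knockout peak, from 137785869 to 137786969, was 1101 bp wide and listed 2 times, and the control peak, from 137785911 to 137786883, was 973 bp wide and listed 3 times. They left 187 and 273 bp to the annotated gene, and 362 and 448 bp to the first RefSeq start site at 137787331. The knockout peak held the whole of the control peak, which made up 88.4% of it. Both overlapped the upper end of the neighbouring gene Mepce, which encodes the capping enzyme of 7SK RNA, by 833 and 791 bp, so the site cannot be assigned to Zcwpw1 by position. The other pair in the window lay across the start site of Ppp1r35, 8145 bp (knockout) and 8112 bp (control) from Zcwpw1. It was 316 bp wide (knockout) and 482 bp wide (control), each listed once, a log2 width ratio of -0.61.

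**Figure D2:**
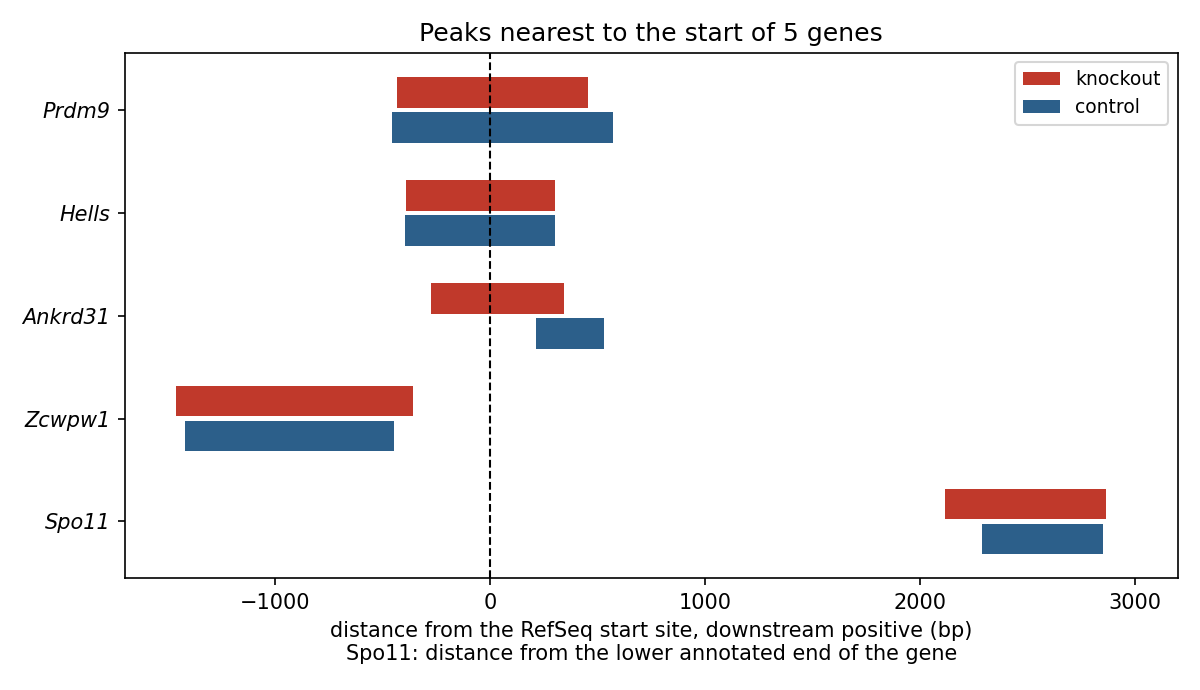
The peak nearest to a RefSeq start site of Prdm9, Hells, Ankrd31 and Zcwpw1, and the peak inside Spo11, drawn as bars to scale. Bars are red for the knockout and blue for the control, with distance in bp from the start site on the horizontal axis. Spo11 had no start site given, so its distance is from the lower annotated end of the gene. The bars of Prdm9 and Hells cross 0 in both lists, the bar of Ankrd31 crosses 0 in the knockout and begins at 214 bp in the control, and the bars of Zcwpw1 and Spo11 lie to either side.

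Spo11 (gene ID 26972; chromosome 2, 172977379 to 172993576) had a peak inside the gene in both lists, away from its ends. The knockout peak ran from 172979497 to 172980243 and was 747 bp wide, and the control peak ran from 172979670 to 172980229 and was 560 bp wide. Both were listed 2 times. The control peak lay wholly within the knockout peak and covered 74.97% of it. The right edges differed by 14 bp and the left edges by 173 bp, so the extra width in the knockout lay on the left. The peaks began 2118 and 2291 bp from the lower annotated end of Spo11, and therefore fell outside the window of 1 kb, while a window of 3 kb included them in both lists. They also stood before the start site of the long non-coding RNA gene Gm52538, which is on the minus strand and starts at 172979120, by 377 bp (knockout) and 550 bp (control). Which gene the site belongs to was not tested. The other pair in the window, 1325 bp (knockout, listed 4 times) and 1072 bp (control, listed 3 times), lay across the start site of Rae1, a gene of messenger RNA export and the spindle, 5891 and 5976 bp beyond Spo11. At 98.9% of the knockout list and 94.9% of the control list, it was the widest in any of the 7 windows in each list.

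Of the 3 genes of the axis complex, Ankrd31 had a peak across its start site in the knockout list and just past it in the control list. Mei4 and Rec114 had none inside the gene in either list.

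Ankrd31 (gene ID 625662; chromosome 13, 96748289 to 96909794, plus strand) had the pair with the least overlap. The knockout peak ran from 96748019 to 96748634, 616 bp, and was listed 2 times. The control peak ran from 96748507 to 96748824, 318 bp, and was listed once. They had 128 bp in common, which is 20.8% of the knockout peak and 40.3% of the control peak. Relative to the start site at 96748293, the knockout peak reached from -274 to 341 bp and the control peak from 214 to 531 bp. The bases in both peaks made up 15.9% of the bases in either, and only 87 of the 6296 pairs had as low a value. The knockout peak was wider by a log2 ratio of 0.95, which 93.3% of pairs did not exceed. With an overlap of 50% of both peaks required, this pair no longer counted as shared. With only intervals listed at least 2 times kept, Ankrd31 had a peak in the knockout list alone. Of the 10709 control peaks at least as wide as that of Ankrd31, 44.4% were listed once.

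Rec114 (gene ID 73673; chromosome 9, 58652856 to 58822706, minus strand) had no peak inside its 169.9 kb in either list. The same was true of 233 of the 1229 protein-coding genes at least as long (18.96%). Its RefSeq start site at 58741559 lies within the annotated span, 88.0 kb from the nearest knockout peak and 158.3 kb from the nearest control peak. The knockout list left a stretch of 246.9 kb around it without a peak, and the control list one of 452.9 kb. Gaps between neighbouring peaks were at least as long in 9.53% of cases in the knockout list and 6.86% in the control list. Such shares count gaps, not bases, and a long gap is likelier to hold a given start site. The 1 knockout peak in the window, 243 bp wide and listed once, ran from 58829569 to 58829811, 6862 bp beyond Rec114 and inside the neighbouring gene Hcn4, an ion channel gene. The neighbour on the other side, Nptn, had a peak across its start site in both lists.

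Mei4 (gene ID 75033; chromosome 9, 81863670 to 82206007, plus strand) had no peak inside its 342.3 kb or within 10 kb of it in either list. The nearest peak to its start site was 936.7 kb away in the knockout list and 1111 kb away in the control list. The stretch without a peak around the start site measured 2.60 Mb in the knockout list, from 80196702 to 82800400, and 2.81 Mb in the control, from 80165155 to 82975141. Of the 20983 gaps between neighbouring knockout peaks, 73 were at least as long (0.348%), as were 112 of 15355 control gaps (0.729%). These are shares of gaps, not of bases. A long gap is likelier to hold a given start site, so they understate how often a place lies in such a gap. The median gap was 43.8 kb and 52.0 kb. The knockout stretch held 3 protein-coding genes in full, Impg1, Htr1b and Mei4, and the control stretch also held Irak1bp1. A long gene without a peak is not rare in these lists: of the 452 protein-coding genes with a window at least as long as that of Mei4, 76 (16.8%) had none in either list. A missing peak does not show that the start of Mei4 was closed, since signal below the peak caller's threshold was not analysed here.

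**Figure D3:**
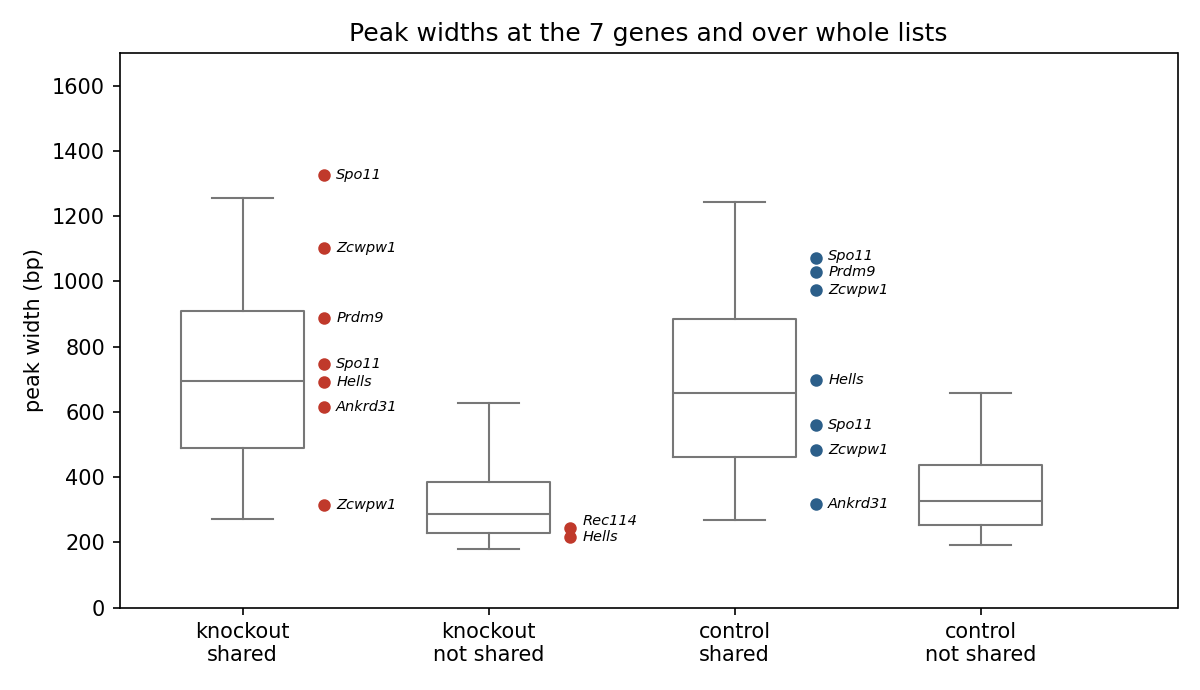
Peak width in bp on the vertical axis for shared and unshared peaks of each list. Boxes give the quartiles and the median over the whole list, whiskers the 5th and 95th percentiles, and the points are the peaks in the windows of the 7 genes. The points of shared knockout peaks range from 316 to 1325 bp, those of shared control peaks from 318 to 1072 bp, and the 2 unshared knockout peaks are at 217 and 243 bp.

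The shared peaks at these genes had a wide range of widths. Over the whole lists, the median width was 695 bp for shared and 288 bp for unshared knockout peaks, and 658 and 326 bp for those of the control. Of the 7 pairs at these genes, the knockout peak was the wider in 4, the Spo11 and Rae1 sites, the site before Zcwpw1 and Ankrd31, and the narrower in 3, Prdm9, Hells and the Ppp1r35 site. The log2 ratio of knockout to control width ran from -0.61 to 0.95 with a median of 0.18. Over all 6296 pairs the median was 0.03, with quartiles of -0.29 and 0.38, and 3 of the 7 pairs lay outside those quartiles: Ankrd31 at 0.95 and the Spo11 site at 0.42 above them, and the Ppp1r35 site at -0.61 below. By definition, as many of all pairs lie outside the quartiles as between them, so 3 of 7 is near the share over all pairs.

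**Figure D4:**
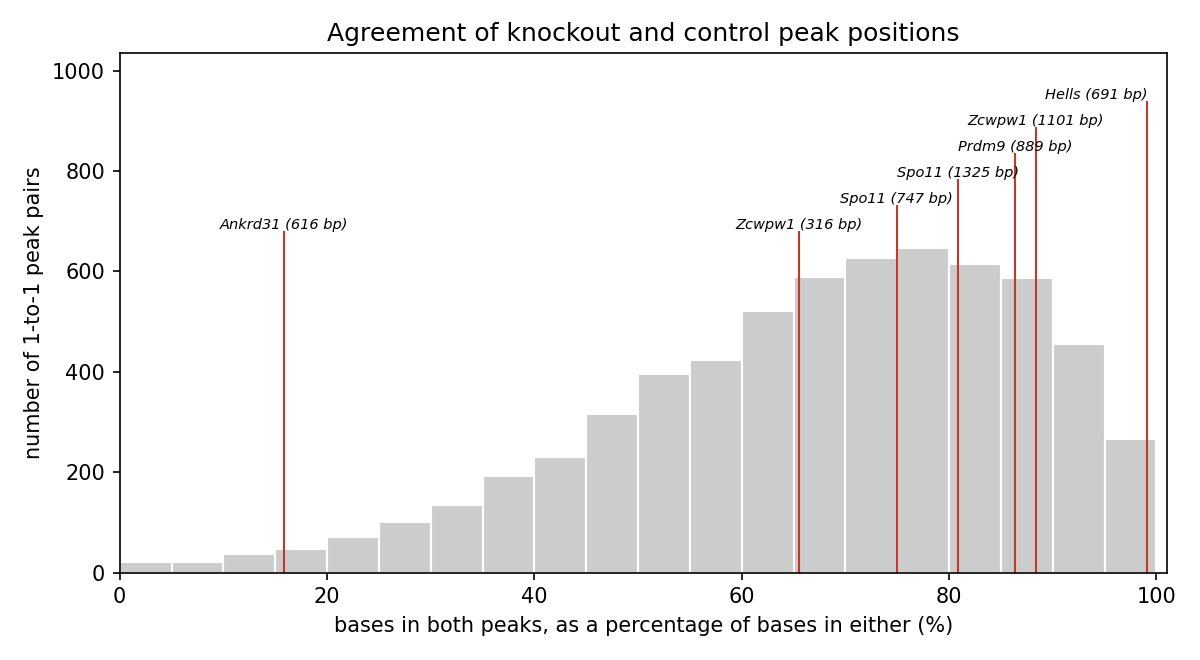
Number of 1-to-1 peak pairs (grey bars, vertical axis) by the percentage of bases in either peak that lie in both (horizontal axis), with red lines for the 7 pairs in the windows, each labelled with its gene and its knockout width. Hells stands at 99.1%, Ankrd31 at 15.9%, and the other 5 lines lie between 65.6 and 88.4%.

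The other genes of the pathway were read in the same way, as 17 genes in 3 groups, all matched in the gene table. With the 10 kb window, 15 had a peak in both lists and 2, Ehmt2 and Exo1, in the knockout list alone, against 46.1% and 13.9% of all protein-coding genes. Within 1 kb of an annotated end, 13 had one in both lists, Ehmt2 and Exo1 in the knockout list alone, and Cdyl and Rbbp8 in neither, and none had one in the control list alone. Over all protein-coding genes that rule gave 28.6% in both lists, 9.81% in the knockout list alone and 57.0% in neither. These counts are descriptions of 2 lists of unequal length, in which the knockout list is the longer.

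Both lists held a gene-end peak at all 6 genes grouped here as break machinery and axis genes, against 28.6% of all protein-coding genes. At Top6bl, listed in the gene table as Gm960, which encodes the partner subunit of SPO11, the widest was 787 bp (knockout) and 875 bp (control), and it lay at the end shared with Rce1, away from the RefSeq start. A narrower pair, 281 bp (knockout) and 337 bp (control), lay at the other annotated end of Top6bl. No other coding gene ended within 1 kb of that pair, and it was not on the promoter window. Iho1, whose protein binds REC114 and MEI4 on the axis, had one of 418 bp (knockout) and 562 bp (control). Mei1 had one of 431 and 640 bp, which lay beyond the gene at the start of Ccdc134 and not on the Mei1 promoter window. The axis proteins HORMAD1 and HORMAD2 are needed on unsynapsed axes, and TRIP13 removes them. Their genes had knockout and control peaks of 814 and 582 bp (Hormad1), 718 and 975 bp (Hormad2) and 936 and 976 bp (Trip13). All 3 had a peak on the promoter window in both lists. The Trip13 peaks lay at an end shared with Brd9.

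Both lists held a gene-end peak at 3 of the 5 genes of PRDM9 partners and readers, beside the same 28.6% over all genes. Ewsr1, which encodes an RNA-binding protein, had knockout and control peaks of 1586 and 1603 bp at an end shared with Rhbdd3. At Zcwpw2, a relative of Zcwpw1, it was 884 and 993 bp, at an end shared with Azi2. At Cxxc1, a subunit of the SET1 methyltransferase complex, it was 918 bp (knockout) and 257 bp (control). Ehmt2, an H3K9 methyltransferase, had one 324 bp wide, found in the knockout list only. Cdyl had a peak on a promoter window inside the gene in both lists, although it had none near its annotated ends.

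Both lists held a gene-end peak at 4 of the 6 genes of break control and end resection, where 28.6% of all genes had one. The kinase gene Atm, which limits break number, had peaks of 1039 bp (knockout) and 520 bp (control) at an end shared with Npat. The genes of the MRN nuclease complex had knockout and control peaks of 687 and 851 bp (Mre11a), 324 and 616 bp (Rad50) and 838 and 505 bp (Nbn). The Mre11a peaks lay at an end shared with Ankrd49. Exo1, a resection exonuclease, had one 767 bp wide, listed 2 times and found in the knockout list only. Rbbp8, which encodes CtIP, had a peak inside the gene but not at an annotated end.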

How the data were processed

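ATAC-seq was done on pachytene spermatocytes of 4 libraries, 2 per genotype, with over 30000000 reads per sample per the labels. The authors deposited 1 peak list per genotype, recorded for replicate 1 of each, and the labels do not say whether libraries were pooled. Each list holds 3 columns, chromosome, start and end, with no score. MACS2 2.2.4 and the build mm10, with Bowtie2 2.3.4.3, cutadapt 2.5 and Picard 2.20.7, appear in the processing notes of the submitters. A shift of reads for Tn5 and the calling threshold are not stated there.

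Identical lines were collapsed to unique intervals and the number of lines was kept. Positions are 1-based. Genes came from the RefSeq table of GRCm38.p6, and start sites from its promoter table. The files hold no exon annotation, so sites are placed relative to gene ends and start sites only. An interval belonged to a gene when it lay inside it or within 10 kb of either end, and was shared when it overlapped the other list by at least 1 bp. All 7 members and 17 further pathway genes were named, with each neighbour that a member's peak touches. The members and lists were chosen with earlier results of these data known. With 1 list per genotype no test between genotypes was made. Shares carry exact Clopper-Pearson 95% intervals, which cover counting error only. Python 3.11.15, numpy 2.4.6, pandas 2.3.3, scipy 1.17.1 and matplotlib 3.10.9 were used. The interval code was tested on simulated data over 200 genes, where 100 of 100 planted windows and 134 of 134 planted shared intervals were found. Alternatives changed the window, the minimum width and number of lines, the overlap rule, merging, list length and intervals near other genes.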

Additional observations from a re-analysis of the deposited data

How the results depend on the processing

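No paired analysis was possible because each genotype has 1 list, and for the same reason no replicate could be left out. Of the 90 values under other settings, 62 stayed within the limits set for a change, 28 moved and 0 reversed. Counts and shares have no sign, so only the median log2 width ratio could reverse, and the 0 says nothing about the other values. The limits were wide. Within them fell 6 knockout peaks (without peaks near other genes' ends) against 9 in the main setting. So did a shared share of 77.8% of control peaks (window of 20 kb) against 100%. Inside the genes alone there were 4 knockout and 4 control peaks, all knockout peaks were shared (100%), 0 genes had a peak in the knockout list alone and 3 had none. With a window of 5 kb there were 5 knockout peaks, 100% of them shared, 0 genes with a knockout peak alone and 2 with none. With peaks of at least 300 bp, and with the knockout list cut to its widest peaks at the control list's length, the shared share of knockout peaks was 100%, 0 genes had a knockout peak alone and 2 had none. With intervals listed at least 2 times there were 5 knockout peaks, 3 genes with a peak in both lists, 1 in the control list alone and 2 with none. Near gene ends that setting gave 2 in both, 1 in the knockout list alone and 1 in the control list alone, and the median log2 width ratio was 0.24. Without peaks near other genes' ends there were 4 control peaks and 2 genes with none. An overlap of 50% of both peaks gave a median log2 width ratio of 0.083. The promoter window, chosen after seeing the data, gave 2 genes in both lists and 1 in the knockout list alone. The causes were not tested. Depth per list is unknown, which limits any reading of a peak found in 1 list.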

Other observations

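Between 10 and 20 kb from the 7 genes lay 3 further peaks, each in 1 list and at or near another gene. A knockout peak of 559 bp, listed 2 times, stood 15.5 kb from Prdm9 at the end of Pdcd2. A control peak of 646 bp, listed 2 times, stood 14010 bp from Zcwpw1 near the start of Pilra, and a control peak of 430 bp, listed once, stood 15.3 kb from Ankrd31 inside Gcnt4. None of the 3 overlapped a peak of the other list.

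The 250 bases before the start site differed in base composition between the genes. Hells had 65.6% G and C with 28 CpG dinucleotides, and Ankrd31 had 64.4% with 12. The outer start site of Prdm9 had 60.8% with 13, and Mei4, which had no peak, had 58.8% with 12. Rec114 had 45.2% with 10, and the first start site of Zcwpw1 had 49.6% with 13. Over all protein-coding start sites, those with a peak in both lists had medians of 62.8% and 20, and those with none had 50.8% and 4. In G and C, Rec114 and the first start site of Zcwpw1 lay below the median of start sites without a peak, and the other start sites of these genes above it. In CpG count, all 8 start sites of these genes, with 9 to 28 CpG dinucleotides, were above the median of start sites without a peak. A CpG count above that median was therefore not particular to Mei4 and Rec114. The upper quartile without a peak was 10, the value of Rec114. The lower quartile with a peak in both lists was 15, above the outer start site of Prdm9.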
